A study of Mus musculus with 69 samples.

Results

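The 10 genes described here encode ligands, receptors and binding proteins of transforming growth factor beta (TGF-beta), with a feedback inhibitor and a secreted target protein of the same pathway. They were chosen by name, as the rows of the 3 deposited count tables whose Ensembl identifier belongs to Tgfb1, Tgfb2, Tgfb3, Tgfbr1, Tgfbr2, Tgfbr3, Ltbp1, Ltbp2, Smad7 or Tgfbi, out of 56953 genes in all. Expression was measured by poly(A) RNA-Seq in 69 libraries of cultured primary cells from male C57BL/6 mice, whose ages are not given in the sources used here. WT VSMC were vascular smooth muscle cells (VSMC) from the thoracic and abdominal aorta (16 libraries, sets 1 to 4). KO VSMC were the same kind of cell from mice with floxed Egfr alleles and a Cre recombinase driven by the SM22 promoter (15 libraries, sets 5 to 8). EC were endothelial cells from the heart, enriched with CD45 and CD31 magnetic beads and labelled WT (38 libraries, sets 9 to 18). Each set came from a single animal and held up to 4 conditions: Control, HG + FFA (20 mM glucose with free fatty acids, at 100 µM in the labels and as oleate and palmitate at 100 µM each in the methods), AII + NA (30 nM angiotensin II with 300 nM of a catecholamine, named epinephrine in the labels and norepinephrine in the methods) and ALL, in which these stressors were combined. The labels give 24 h for the stressor exposures and no time for Control. All cells had been grown and passaged in culture, and the VSMC were kept without serum before and during the exposure, which the methods do not state for EC. No library was analysed here for ALL in KO VSMC set 5, Control in EC set 10 and AII + NA in EC set 15, so n was 4 in every VSMC group except KO ALL (n = 3), and 9 or 10 in EC.

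TGF-beta is secreted as a latent dimer. Its propeptide stays wrapped around the ligand and is tethered to the extracellular matrix by latent TGF-beta binding proteins, of which Ltbp1 is one, whereas Ltbp2 shares their structure and binds elastic fibres without binding the ligand. Once released, the ligand binds the type II receptor (Tgfbr2), which phosphorylates the type I receptor (Tgfbr1), and the betaglycan Tgfbr3 presents the ligand, TGF-beta 2 in particular. The type I receptor phosphorylates Smad2 and Smad3, Smad7 blocks this step as a feedback inhibitor, and Tgfbi is a secreted matrix protein named for its induction by TGF-beta. In the vessel wall the pathway is known for its part in matrix deposition and in the contractile state of smooth muscle.

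Library totals ran from 23626664 to 37801299 counts for WT VSMC, from 23238979 to 35120866 for KO VSMC and from 17166133 to 43240489 for EC. Levels are given as FPM, fragments per mega-count of the library after TMM scaling of all 69 libraries together. Egfr, the targeted gene, was between 283 and 504 FPM in the Control libraries of WT VSMC. In KO VSMC it was at 40.2 FPM in the Control library of set 5 and the lowest Control value was 0.537 FPM, so the libraries labelled KO in set 5 kept more Egfr RNA than the other KO libraries. EC set means of Egfr ranged from 2.65 to 151 FPM. EC sets 15 and 16 are labelled WT but came from the animals of KO VSMC sets 7 and 6. Their Egfr set means, 9.40 and 2.65 FPM, were the lowest of the EC sets (set 18 was next at 12.8 FPM). Egfr was highest in EC sets 9, 11 and 13, at set means of 134, 151 and 137 FPM. Sets 15 and 16 are WT by label, and the methods describe the deletion as specific to VSMC. The part of the genotype in their low Egfr was not tested, and no fit left out sets 15 and 16 together. EC sets 9 and 10 came from the animals of WT VSMC sets 1 and 2. Among the markers of smooth muscle, Acta2 was at 601 FPM or more in every VSMC set, whereas Myh11 had a median of 7.48 FPM over the WT sets and Myocd stayed under 3 FPM in all sets. The 8 smooth muscle markers summed to 752 to 1288 FPM in the WT VSMC sets and to 876 to 3216 FPM in the KO VSMC sets. The 8 fibroblast markers summed to more, 9015 to 23595 FPM in WT and 3425 to 13746 FPM in KO. The name VSMC thus follows the label, and these markers do not set the cells apart from fibroblasts. The summed level of 10 endothelial markers in EC ran from 64.4 to 4731 FPM between sets. In EC sets 9, 11 and 13 Pecam1 was at 25.9, 41.4 and 17.9 FPM, under a limit of 100 FPM, and the endothelial markers summed to 64.4, 144 and 65.2 FPM. These 3 sets thus go against their label, and the calls of pathway genes in EC are given with and without them. Their 8 fibroblast markers summed to 6150.2, 22264 and 18449 FPM, against 7265 FPM in set 17, so this sum does not single out set 9. In sets 11 and 13 the 8 smooth muscle markers summed to 3182 and 2940 FPM. In bulk RNA, fewer cells of a type and less RNA per cell cannot be told apart.

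All 10 members had a row in each table and passed the low-count filter in each cell type, and their IDs are as follows on GRCm39. The ligand Tgfb1 (ENSMUSG00000002603) lies at chr7:25386390-25404506, Tgfb2 (ENSMUSG00000039239) at chr1:186354985-186438294 and Tgfb3 (ENSMUSG00000021253) at chr12:86102756-86126301. The receptor Tgfbr1 (ENSMUSG00000007613) lies at chr4:47353134-47414931, Tgfbr2 (ENSMUSG00000032440) at chr9:115913361-116004800 and Tgfbr3 (ENSMUSG00000029287) at chr5:107249402-107437623. Ltbp1 (ENSMUSG00000001870) lies at chr17:75312519-75699507, Ltbp2 (ENSMUSG00000002020) at chr12:84829986-84923306 and Tgfbi (ENSMUSG00000035493) at chr13:56757336-56787375, and Smad7 has the identifier ENSMUSG00000025880. All are protein-coding and were counted over their exons. With other genes Tgfb3 shares 13% of its exonic bases (with Ttll5 among others), Ltbp2 9.34% and Tgfb2 3.71%. Whether the counting used the strand is not stated, so reads of these stretches cannot be told apart from reads of the opposite-strand genes.

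The promoters of 3 members are shown because the results turn on these genes, Tgfb2 higher under ALL stressors in WT VSMC, Tgfbi lower there and in EC, and Ltbp2 lower in EC. They are the 250 bases before the start site from RefSeq on GRCm38.p6, where 7 of the 10 members had an entry, at chr1:186705990-186706239 on the minus strand (Tgfb2), chr13:56609336-56609585 on the plus strand (Tgfbi) and chr12:84876492-84876741 on the minus strand (Ltbp2). Capitals mark CAGAC on either strand, a short SMAD-type motif; the other capitals are TATAAA, known as the TATA box.
Tgfb2: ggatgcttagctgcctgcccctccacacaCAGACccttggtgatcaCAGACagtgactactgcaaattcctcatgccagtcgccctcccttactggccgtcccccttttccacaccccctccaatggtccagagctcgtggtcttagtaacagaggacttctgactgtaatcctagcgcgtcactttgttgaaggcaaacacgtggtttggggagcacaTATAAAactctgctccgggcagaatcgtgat
Tgfbi: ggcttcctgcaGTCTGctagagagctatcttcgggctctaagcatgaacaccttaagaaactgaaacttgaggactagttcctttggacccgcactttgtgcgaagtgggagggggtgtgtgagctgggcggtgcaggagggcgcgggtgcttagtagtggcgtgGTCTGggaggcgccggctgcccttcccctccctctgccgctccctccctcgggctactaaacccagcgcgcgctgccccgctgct
Ltbp2: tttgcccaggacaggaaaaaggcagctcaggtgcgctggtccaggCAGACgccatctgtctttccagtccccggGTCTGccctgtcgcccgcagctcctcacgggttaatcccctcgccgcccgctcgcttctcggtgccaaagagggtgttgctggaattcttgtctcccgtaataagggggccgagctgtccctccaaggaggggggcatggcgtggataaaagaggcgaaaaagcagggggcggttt
Each of the 3 held 2 matches to CAGAC, a motif found in 42.2% of 32851 promoters of this length. Tgfb2 also held TATAAA, with its first base at position -31 from the start site, as did 12.4% of all promoters. None of the 3 held the longer SMAD palindrome GTCTAGAC (0.167% of all), the AP-1 motif TGACTCA (4.46%) or the cAMP response element TGACGTCA (1.55%), searched on both strands. Tgfbi and Ltbp2 held the GC box GGGCGG (32.7% of all) and Tgfb2 did not. These matches describe the letters of the windows and say nothing about binding.

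Among the ligands, Control levels per kilobase of exon were highest for Tgfb3 in both kinds of VSMC. In WT VSMC Tgfb3 stood at 25.4 ± 1.03 FPM per kb (SD, n = 4), Tgfb1 at 15.6 ± 1.51 and Tgfb2 at 4.20 ± 2.28. In EC the order was less clear, with Tgfb3 at 23.5 ± 13.98, Tgfb2 at 18.3 ± 7.66 and Tgfb1 at 12.8 ± 3.59 FPM per kb (n = 9), and Tgfb3 and Tgfb2 lay within each other's SD. In WT VSMC Tgfb1 was the most even of the 10 genes, with a highest set mean 1.14 times the lowest.

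Among the receptors, Tgfbr2 was the highest per kilobase in every cell type. Its Control level was 39.9 ± 20.3 FPM per kb for WT VSMC, 32.7 ± 10.2 for KO VSMC and 61.7 ± 30.1 for EC. Tgfbr1 was at 4.37 ± 1.62, 3.89 ± 1.94 and 8.79 ± 2.85 FPM per kb in the same order. Tgfbr3 stood between them, at 24.5 ± 10.7, 11.5 ± 7.32 and 12.8 ± 5.03. Less RNA of the type I than of the type II receptor was thus found in all 3 cell types.

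In EC the binding proteins and Tgfbi were the least even of the 10 genes between sets. The highest Tgfbi set mean was 47.6 times the lowest, the highest Ltbp1 set mean 12.8 times and the highest Ltbp2 set mean 12.6 times, against 2.24 times for Tgfb1. Although a single animal gave EC sets 17 and 18, Tgfbi was at 126 and 686 FPM and Ltbp1 at 66.8 and 318 FPM in their Control libraries, while Tgfb3 was at 228 and 52.2 FPM. The spread between sets was thus not only a spread between animals. In VSMC the Tgfbi set means ran from 31.3 to 367 FPM in WT and from 12.4 to 154 FPM in KO. Most of the variation of these genes lay between sets, which is why each stressor was compared with the Control of the same set.

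**Figure D1:**
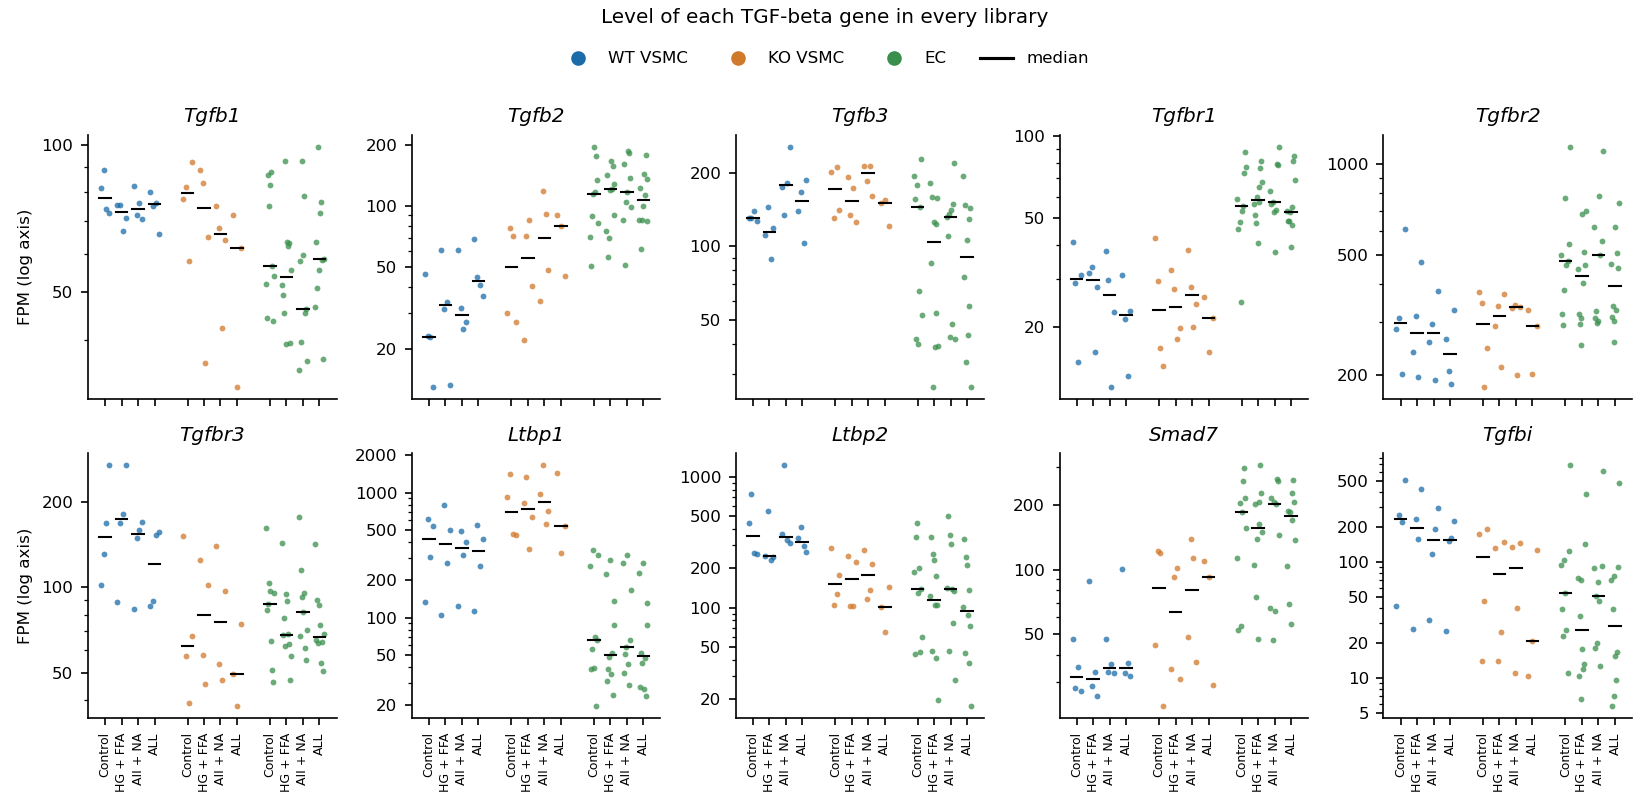
Level of each of the 10 genes in FPM (log axis) in every library, by cell type and condition, with a black bar at the median of the libraries. Tgfb2, Tgfbr1 and Smad7 sit higher in EC than in WT VSMC (Control means 115, 58.2 and 170.1 FPM in EC), and Tgfbi spreads over the widest range, from 5.74 to 686 FPM in EC.

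Unstressed EC had more Tgfb2, Smad7 and Tgfbr1 RNA than unstressed WT VSMC. Tgfb2 was at 46.6, 23.0, 22.7 and 12.9 FPM in WT VSMC sets 1 to 4, and in EC the lowest, median and highest Control values were 50.8, 115 and 196 FPM, so the groups did not overlap. Its log2FC was 2.14 (95% interval 1.28 to 3.01, FDR 0.00692, edgeR's quasi-likelihood test with Benjamini-Hochberg adjustment over all genes). Smad7 was at 47.5, 28.3, 35.4 and 27.5 FPM in WT VSMC against a range of 52.3 to 295 FPM in EC, again without overlap (log2FC 2.31, FDR 0.00809). Tgfbr1 had a log2FC of 1.03 and an FDR of 0.0472, a call kept in 5 of 17 alternative fits. Called were 3 of the 10 members, against 12% of 17115 genes tested (6.7% higher), and no member was called lower. Without EC sets 9, 11 and 13, 5 members were called: the same 3 and, lower in EC, Tgfbr3 (log2FC -1.15, FDR 0.0145) and Ltbp1 (log2FC -2.03, FDR 0.0472). VSMC and EC libraries carry different batch labels (B1 and B2), so cell type and batch cannot be told apart here, and animals are shared between sets 1 and 9 and between sets 2 and 10.

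No member differed between unstressed KO and WT VSMC by edgeR (FDR 0.38 or more), where 1 of 16089 genes was called (0.00622%) and 1958 had an unadjusted p under 0.05. By DESeq2 343 genes were called, none of them a member. The largest differences were in Ltbp2, Tgfbi and Smad7. Ltbp2 was at 286, 104, 127 and 179 FPM in KO sets 5 to 8, against 447, 737, 261 and 259.8 FPM in WT sets 1 to 4. Its log2FC was -1.27 (95% interval -2.23 to -0.31). Smad7 was at 44.9, 122, 119 and 23.4 FPM in KO (log2FC 1.16, interval 0.10 to 2.21), and its values were high in sets 6 and 7 and low in sets 5 and 8, overlapping those of WT. No fibroblast or smooth muscle marker was called by edgeR. Fibroblast markers had a median log2FC of -1.57 (5 of 8 at an unadjusted p under 0.05), smooth muscle markers of 1.19 (6 of 7). The fibroblast markers summed to 3450 to 14577 FPM in KO and 9669 to 28178 FPM in WT. The part of these markers in the differences of Ltbp2, Tgfbi and Smad7 was not tested.

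In WT VSMC the ligand Tgfb2 rose under ALL stressors, and the matrix protein Tgfbi and the type II receptor Tgfbr2 fell. Called were 3 of 10 members, 1 higher and 2 lower, against 7.45% of 16905 genes (3.92% higher, 3.53% lower), and the median log2FC of the 10 members was -0.23 beside a median of -0.01 over all genes tested. By the study's own rule for differentially expressed genes (DEG: FDR under 0.05 in both edgeR and DESeq2, |log2FC| of at least 0.64 and 3 FPM in a group), Tgfb2 and Tgfbi were DEG and Tgfbr2 was not, because its change was smaller. That rule gave 2.18% of all genes.

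Tgfb2 was at 46.6, 23.0, 22.7 and 12.9 FPM under Control and at 69.3, 44.8, 41.1 and 36.1 FPM under ALL in sets 1 to 4. It was higher under ALL in 4 of 4 sets, by 0.57 to 1.47 on the log2 scale, although the 2 groups of libraries overlapped because set 1 was high throughout. The log2FC was 0.96 (SE 0.17, 95% interval 0.60 to 1.33, fold 1.95, FDR 0.00337). This call was lost only in the fit without the set as a block (log2FC 0.87), among 9 alternatives, and leaving out any single set gave log2FC values between 0.80 and 1.09. The promoter shown above with TATAAA is that of this gene.

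Tgfbi was at 41.6, 254, 221 and 514 FPM under Control and at 25.3, 152, 162 and 229 FPM under ALL. It was lower in 4 of 4 sets, and set 1 was low under every condition. The log2FC was -0.76 (95% interval -1.11 to -0.42, fold 0.589, FDR 0.0102). Without set 4, which had the highest level, the FDR was 0.0955 with a log2FC of -0.63.

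Tgfbr2 was at 284, 308, 201 and 609 FPM under Control and at 264, 207, 186 and 328 FPM under ALL. All 4 sets were lower, sets 1 and 3 only slightly (by 0.11 to 0.89 on the log2 scale over the 4 sets). The log2FC was -0.41 (95% interval -0.67 to -0.16, FDR 0.0496), and the call rested on sets 2, 3 and 4, since leaving out any of these raised the FDR, to 0.357 at most. Among all 9 alternative fits the call of Tgfbr2 was kept in 3. Both other receptors lay lower as well without passing the test. Tgfbr1 was at 40.9, 29.0, 14.9 and 31.1 FPM under Control and at 31.0, 21.4, 13.2 and 22.8 FPM under ALL, lower in 4 of 4 sets (log2FC -0.36, FDR 0.0572). Tgfbr3 was also lower in 4 of 4 sets (log2FC -0.42, 95% interval -0.70 to -0.14, FDR 0.0692). By DESeq2 the FDR of the 3 receptors were 0.0347 (Tgfbr1), 0.0187 (Tgfbr2) and 0.0338 (Tgfbr3).

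The remaining members of WT VSMC did not pass under ALL. Smad7 was higher in 4 of 4 sets, but mostly in set 1, which went from 47.5 to 101 FPM while sets 2 to 4 went from 28.3, 35.4 and 27.5 to 33.3, 37.0 and 32.2 FPM (log2FC 0.42, FDR 0.17). Ltbp1 had a log2FC of -0.24 (FDR 0.236), Ltbp2 of -0.22 (0.535), Tgfb3 of 0.14 (0.68) and Tgfb1 of -0.09 (0.495, 95% interval -0.24 to 0.06). Under ALL the fibroblast markers fell in 2 of 8 genes in the same libraries (their sum lower in 3 of 4 sets, with a range of 9669 to 28178 FPM under Control and 9099.5 to 20313 FPM under ALL), and the endothelial markers in 2 of 10 (sum 4.00 to 79.3 and 2.62 to 38.6 FPM). Of the 6 pericyte markers Notch3 was called higher and Kcnj8 and Rgs5 lower (sum 680.4 to 890.2 and 746 to 935 FPM), of the 8 smooth muscle markers Tagln was called higher (sum 356 to 1199 and 1087 to 1521 FPM), and of the 4 cardiomyocyte markers Tnnt2 was called higher (sum 4.13 to 30.7 and 3.18 to 121 FPM). No leukocyte or mesothelial marker was called. The part of these markers in the changes of Tgfb2, Tgfbr2 and Tgfbi was not tested.

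**Figure D2:**
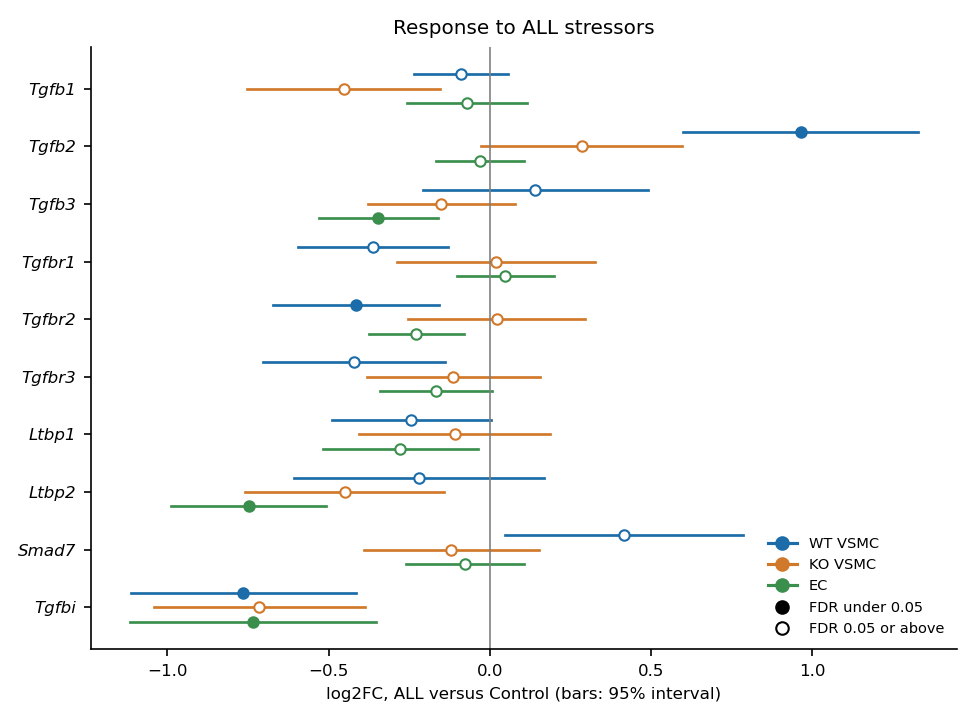
log2FC of ALL versus Control for each of the 10 genes, with 95% intervals, in WT VSMC, KO VSMC and EC, and with filled points where the FDR was under 0.05. Tgfb2 is raised in WT VSMC with an interval of 0.60 to 1.33, whereas in EC it lies between -0.17 and 0.11, and Tgfbi is lower in all 3 cell types (-0.76, -0.71 and -0.73).

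The single stressors gave no member called by edgeR in WT VSMC. Under HG + FFA 0.538% of all genes were called, and 1892 genes, 1 of them a member, had an unadjusted p under 0.05. By DESeq2 no member was called either, among 294 genes. Tgfb2 was at 61.3, 31.4, 33.8 and 13.3 FPM under HG + FFA, higher than Control in 4 of 4 sets but hardly in set 4 (log2FC 0.40, FDR 0.386). Under AII + NA no member was called by edgeR (0.0532% of all genes were, and 3 members had an unadjusted p under 0.05), whereas DESeq2 called Tgfbi. Tgfb2 was then at 60.7, 31.6, 25.01 and 27.1 FPM (log2FC 0.51, 95% interval 0.15 to 0.88, FDR 0.295). Tgfbi was at 31.6, 117, 195 and 295 FPM, lower in 4 of 4 sets (log2FC -0.61, FDR 0.201, DESeq2 FDR 0.0381). Tgfb3 was at 175, 135, 182 and 256 FPM against 131, 130.5, 140 and 128 FPM under Control, higher in 4 of 4 sets (log2FC 0.48, 95% interval 0.13 to 0.83, FDR 0.314). Under ALL its mean of 149 ± 36.2 FPM (SD, n = 4) lay below that under AII + NA (187 ± 50.7 FPM), a difference that did not pass the test (log2FC -0.34, FDR 0.367).

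Whether the combination went beyond the sum of its parts was tested as the log2 effect of ALL less the summed log2 effects of both single exposures. No member departed from additivity, and no gene was called by edgeR (0% of 16905, with 290 at an unadjusted p under 0.05) or by DESeq2. For Tgfb2 the departure was 0.06 (95% interval -0.45 to 0.56) and for Tgfbi 0.18 (interval -0.31 to 0.67). ALL compared with HG + FFA gave no member called by edgeR (0.0414% of all genes) and 2 by DESeq2, Tgfb2 (log2FC 0.57, DESeq2 FDR 0.0441) and Tgfbr3 (log2FC -0.49, DESeq2 FDR 0.0364). ALL compared with AII + NA gave none (1.36% of all genes were called, and Tgfb2 had a log2FC of 0.45 and an FDR of 0.221). These comparisons share libraries with those above.

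**Figure D3:**
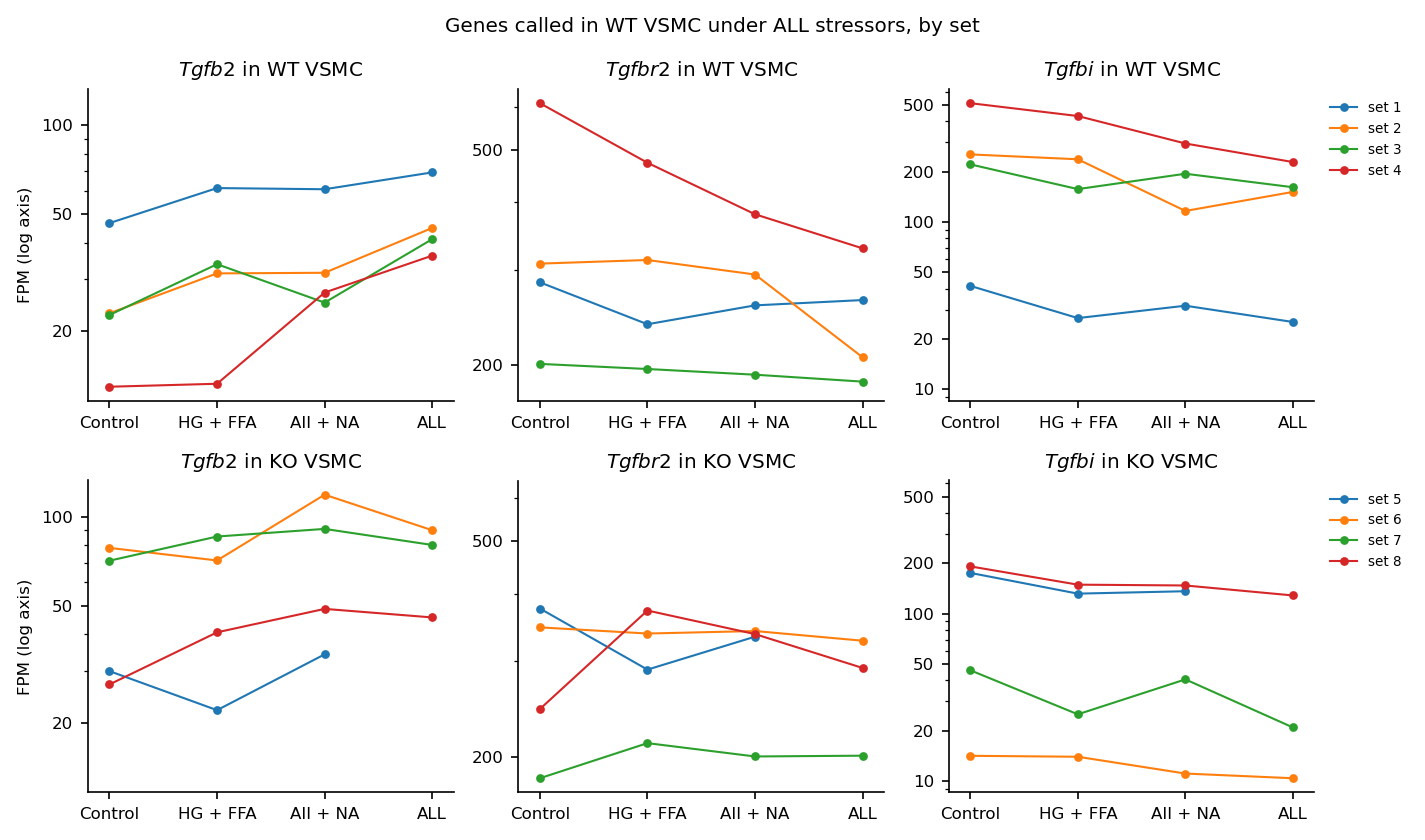
FPM (log axis) of Tgfb2, Tgfbr2 and Tgfbi in WT VSMC (top) and KO VSMC (bottom) under each condition, where each line joins the libraries of a set. Every WT line of Tgfb2 ends higher under ALL than under Control, and every line of Tgfbi with an ALL library ends lower in both genotypes. For Tgfbi set 1 of WT (41.6 FPM under Control) is far below the other WT sets. In KO the Tgfbi set means of sets 6 and 7 (12.4 and 33.0 FPM) lie far below those of sets 5 and 8 (148 and 154 FPM).

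In KO VSMC no member was called under any stressor. Called genes were 0.439% of 17538 under HG + FFA, 0% under AII + NA and 0.399% under ALL, and 1, 4 and 3 members had an unadjusted p under 0.05. By DESeq2, which called 246, 11 and 259 genes, Tgfbi alone of the members was called, under ALL. Tgfbi was at 175, 14.1, 45.9 and 192 FPM under Control in sets 5 to 8, and at 10.4, 20.9 and 128 FPM under ALL in sets 6 to 8. It was lower in 3 of 3 pairs (log2FC -0.71, 95% interval -1.04 to -0.39, FDR 0.0587, DESeq2 FDR 0.00228). Without set 5, which has no ALL library and the most Egfr RNA, edgeR called it too (FDR 0.0493). Under ALL the sum of the 8 fibroblast markers was lower in 3 of 3 pairs. None of the 8 was called, and 6 had an unadjusted p under 0.05 by edgeR (median log2FC -0.37). Of the 4 mesothelial markers Upk3b was called higher, and no marker of the other lists was called. The part of these markers in the fall of Tgfbi was not tested.

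Tgfb2 in KO VSMC was at 29.9, 78.5, 71.0 and 27.0 FPM under Control and at 90.1, 80.3 and 45.6 FPM under ALL in sets 6 to 8. It was higher in 3 of 3 pairs, mostly in set 8 (log2FC 0.29, 95% interval -0.03 to 0.60, FDR 0.511). Under AII + NA it was at 34.1, 119, 91.1 and 48.7 FPM, higher in 4 of 4 sets (log2FC 0.49, 95% interval 0.21 to 0.78, unadjusted p 0.00186 by edgeR's quasi-likelihood test, FDR 0.509). The receptors lay close to Control under ALL, with log2FC values of 0.02 for Tgfbr1, 0.02 for Tgfbr2 and -0.11 for Tgfbr3, and intervals of -0.29 to 0.33, -0.25 to 0.30 and -0.38 to 0.16. Tgfb1 (log2FC -0.45, FDR 0.239) and Ltbp2 (log2FC -0.45, FDR 0.267) were lower in 3 of 3 pairs without passing. ALL and HG + FFA did not differ for any member (0% of all genes were called by edgeR or DESeq2, with 510 at an unadjusted p under 0.05 by edgeR).

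The stressor effects of WT and KO VSMC were then compared directly. No member differed between the genotypes under HG + FFA, AII + NA or ALL (0%, 0% and 0.0109% of 18339 genes were called, and 0, 0 and 58 by DESeq2, with 564, 2182 and 1361 genes at an unadjusted p under 0.05). Under ALL the effect on Tgfb2 was larger in WT by 0.68 on the log2 scale (95% interval 0.18 to 1.19, FDR 0.481), that on Tgfbr2 was lower by 0.43 (log2 difference -0.43, interval -0.82 to -0.05, FDR 0.618) and that on Tgfbi differed by -0.05 (interval -0.55 to 0.46). An effect called in WT and not in KO is therefore not shown to depend on the genotype.

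In EC the binding protein Ltbp2, the matrix protein Tgfbi and the ligand Tgfb3 fell with the set as the block, and no member rose. Under HG + FFA 2 of 10 members were called, both lower, against 3.53% of 17148 genes (1.88% lower). Under ALL 3 of 10 were called, all lower, against 3.18% of all genes (2.04% lower). The median log2FC of the 10 members was -0.19 under HG + FFA and -0.20 under ALL, beside medians of 0.00 and -0.01 over all genes tested. Without EC sets 9, 11 and 13, 2 members were called under HG + FFA and 3 under ALL, with medians of -0.18 and -0.23. With the animal in place of the set as the block, which joins sets 17 and 18, 0 members were called under HG + FFA (0.916% of all genes were) and 0 under ALL (0.781%). Under AII + NA no gene was called by edgeR or DESeq2 (0%, with 1143 genes, 2 of them members, at an unadjusted p under 0.05 by edgeR).

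Ltbp2 had its lowest, median and highest Control values at 44.2, 139 and 449 FPM, and under ALL at 17.8, 94.8 and 334 FPM. It was lower under ALL in 8 of 9 pairs, and set 11 was the exception at 44.2 and 45.4 FPM. The log2FC was -0.75 (SE 0.12, 95% interval -0.99 to -0.51, fold 0.596, FDR 0.000153). Under HG + FFA it was also lower in 8 of 9 pairs (log2FC -0.54, 95% interval -0.78 to -0.30, FDR 0.00579), below the size that the DEG rule asks for. Without EC sets 9, 11 and 13 the log2FC was -0.77 (FDR 0.00413) under ALL and -0.55 (FDR 0.0381) under HG + FFA. Leaving out any single set kept both calls, and with the animal as the block the log2FC of Ltbp2 was -0.68 (FDR 0.242) under ALL and -0.46 (FDR 0.481) under HG + FFA.

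Tgfbi had Control values of 10.9, 53.6 and 686 FPM (lowest, median, highest), and 5.74, 28.1 and 485 FPM under ALL. It was lower in 8 of 9 pairs under ALL, with set 16 the exception (10.9 and 16.9 FPM), and set 18 was far above all other sets under each condition. The log2FC was -0.73 (95% interval -1.12 to -0.35, fold 0.601, FDR 0.0233) under ALL and -0.65 (95% interval -1.03 to -0.27, FDR 0.0463) under HG + FFA, where 7 of 9 pairs were lower. Both calls depended on single sets: leaving out set 12, 14 or 15 ended the call under ALL (highest FDR 0.085), and 6 of 10 such fits ended that under HG + FFA (highest FDR 0.182). Without sets 9, 11 and 13 the log2FC was -0.94 (FDR 0.0466) under ALL and -0.78 (FDR 0.0979) under HG + FFA.

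Tgfb3 had Control values of 40.0, 145 and 228 FPM, and 26.7, 90.7 and 194 FPM under ALL. It was lower in 8 of 9 pairs (log2FC -0.35, 95% interval -0.53 to -0.16, FDR 0.0275), and the fold of 0.787 was too small for the DEG rule. Set 14 was the pair that rose, from 40.0 to 43.5 FPM. Under HG + FFA it was lower in 8 of 9 pairs as well (log2FC -0.29, FDR 0.0651). Without sets 9, 11 and 13 the FDR was 0.0358 under ALL and 0.0464 under HG + FFA, whereas leaving out set 10, 13, 15, 17 or 18 alone ended the call under ALL (highest FDR 0.129).

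**Figure D4:**
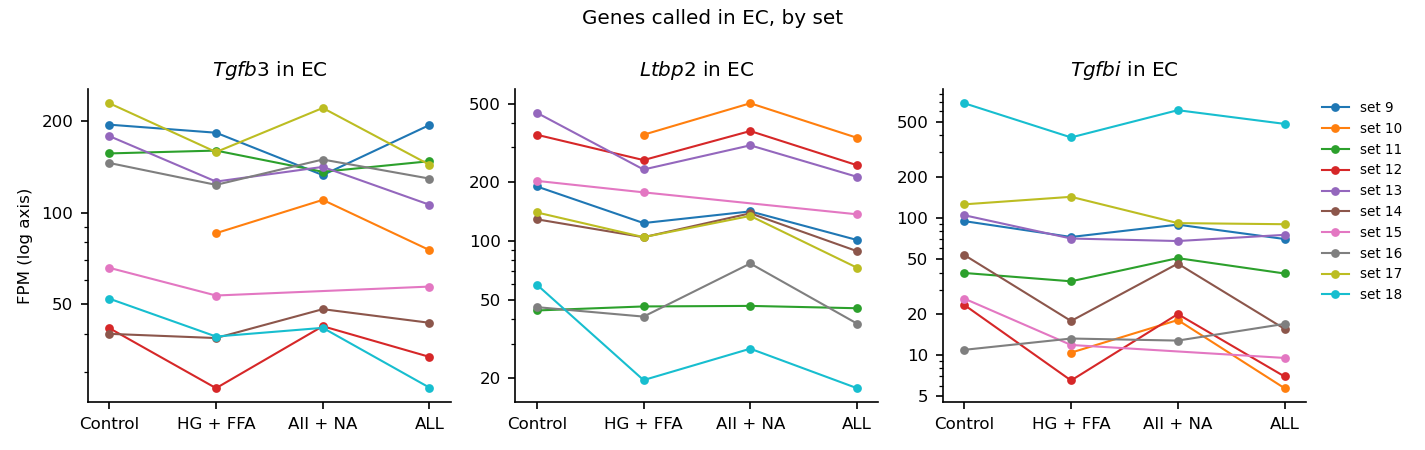
FPM (log axis) of Tgfb3, Ltbp2 and Tgfbi in EC under each condition, where each line joins the libraries of a set and a missing library is passed over. Nearly all lines of Ltbp2 are lower under ALL than under Control (8 of 9 pairs), while set 18 of Tgfbi (686 FPM under Control) stands apart from the rest.

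The other members of EC did not pass. Tgfb2 lay at medians of 115, 121, 117 and 107 FPM in the order of Control, HG + FFA, AII + NA and ALL, with a log2FC of -0.03 under ALL and an interval of -0.17 to 0.11. Tgfbr2 had a log2FC of -0.23 under ALL (FDR 0.0797, DESeq2 FDR 0.0435) and was lower in 7 of 9 pairs, and without sets 9, 11 and 13 the log2FC was -0.28 (FDR 0.0972). Ltbp1 had a log2FC of -0.28 (FDR 0.224), Tgfbr3 of -0.17 (0.339), Smad7 of -0.08 (0.741), Tgfb1 of -0.07 (0.771) and Tgfbr1 of 0.05 (0.813). ALL and HG + FFA did not differ for any member (0% of all genes were called by edgeR or DESeq2, with 881 at an unadjusted p under 0.05 by edgeR), and for Ltbp2 that difference was -0.20 (95% interval -0.43 to 0.03).

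Fibroblast markers moved beside these genes in EC. Under HG + FFA 4 of 8 fibroblast markers were called lower and their sum was lower in 8 of 9 pairs (983 to 22297 FPM under Control, 769 to 21709 FPM under HG + FFA). Under ALL 1 of 8 was called lower, and the sum was again lower in 8 of 9 pairs (929 to 24731 FPM). Of the 10 endothelial markers 1 was called higher under either stressor, with sums of 59.0 to 4456 FPM under Control and 61.8 to 4898 FPM under ALL. Of the 6 pericyte markers 1 was called lower under HG + FFA, and of the 4 mesothelial markers 1 was called higher under ALL. No marker of smooth muscle, leukocytes or cardiomyocytes was called under either. Of the 4 cardiomyocyte markers Myh6, Actc1 and Ttn stayed under 3 FPM in all EC sets, whereas Tnnt2 had a median of 88.9 FPM over the sets and reached 277 FPM, and their sum was lower in 8 of 9 pairs under either stressor (2.91 to 302 FPM under Control, 1.93 to 279.7 FPM under HG + FFA and 1.40 to 231 FPM under ALL). Of the 6 leukocyte markers Ptprc, Itgam and Cd68 were under 3 FPM in all EC sets, Adgre1 in 9 of 10 and Csf1r in 6 of 10, and Lyz2 lay between 4.36 and 92.5 FPM. The part of these markers in the fall of Ltbp2, Tgfbi and Tgfb3 was not tested.

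The effect of ALL on Tgfb2 differed between WT VSMC and EC. The effects were 0.96 in WT VSMC and -0.03 in EC, and their difference was 0.99 on the log2 scale (SE 0.16, 95% interval 0.67 to 1.31, FDR 0.00037). Tgfb2 was the only member among the 0.511% of 19362 genes called in this comparison (0.408% with the larger effect in WT VSMC). The difference was between 0.83 and 1.12 in the 14 fits without a set, and 1.07 (FDR 0.000894) without EC sets 9, 11 and 13, and with the animal as the block the FDR of Tgfb2 was 0.0248. That block was the animal within a cell type, so sets 1 and 9 and sets 2 and 10, which share animals, were not joined. Tgfbi, by contrast, was lower in both cell types by like amounts, with a difference of -0.04 and a wide interval of -0.67 to 0.59. For Tgfb3 (0.48, FDR 0.46), Smad7 (0.48, FDR 0.471), Ltbp2 (0.52, FDR 0.617) and Tgfbr1 (-0.42, FDR 0.27) the difference did not pass.

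Of 71 further genes of the pathway, 70 were tested in WT VSMC and 15 of these were called under ALL, 7 higher and 8 lower (21.4%, beside 7.45% of all genes). None was called under HG + FFA or AII + NA. Of the 28 reported targets of TGF-beta, 6 were higher and 2 lower. Eln, which encodes elastin, had a log2FC of 1.19 (FDR 0.00335), and Tagln, an actin-binding protein of smooth muscle, 0.95 (FDR 0.0361). Tagln stayed low, at 5.399 FPM in its higher group, and shares 66.7% of its exonic bases with other genes. Tagln, Acta2 and Cnn1 are on the lists of both targets and smooth muscle markers, so the call of Tagln was counted in both. Of the 20 genes of the latent complex and its activators, Itgb6 was called higher and 5 lower, among them Itgb3, an integrin subunit (log2FC -0.94, FDR 0.00146). Itgb6 was named after its values were seen and was at 0.484 FPM in its higher group. Of the 8 receptor partners and antagonists 1 was lower, and none of 14 tested SMAD transducers and regulators was called. The targets did not move as 1 group, and their median log2FC was -0.03.

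In KO VSMC none of the 70 further genes tested was called under any stressor by edgeR. When the stressor effects of WT and KO VSMC were compared directly, none of the 71 genes was called under HG + FFA, AII + NA or ALL. Over all genes the shares were 0%, 0% and 0.0109%. Under ALL 12 of the 28 reported targets had an unadjusted p under 0.05 by edgeR, with a median log2 difference of 0.28. So did 3 of 20 genes of the latent complex, 1 of 8 receptor partners, 1 of 15 SMAD genes and 1361 of all 18339 genes. For the 28 targets the count was 11 under AII + NA (2182 of all genes) and 3 under HG + FFA (564). After adjustment over all genes, a difference between the genotypes is not shown for any of these genes. In EC 12 of 69 were called under ALL, all lower (17.4%, beside 3.18% of all genes), and 8 under HG + FFA, 1 higher and 7 lower (11.6%, beside 3.53%). Without EC sets 9, 11 and 13 the counts were 14 under ALL, all lower, and 9 under HG + FFA, 1 higher and 8 lower, whereas with the animal as the block they were 0 and 1. Dcn, Col1a1 and Col1a2 are on both the pathway lists and the list of fibroblast markers. Col1a1 and Col1a2 under HG + FFA and Col1a2 under ALL were thus counted as lower in both. The part of the fibroblast markers in the calls of the pathway genes was not tested. Mmp2, a matrix protease that can release latent TGF-beta, was lower in 9 of 9 pairs under ALL (log2FC -0.30, FDR 0.00155) and in 9 of 9 under HG + FFA (log2FC -0.26, FDR 0.00573). Under HG + FFA the decoy receptor Bambi (log2FC -0.54, FDR 0.0145), Col3a1, a fibrillar collagen (log2FC -0.43, FDR 0.0187), and Bgn, the proteoglycan biglycan (log2FC -0.27, FDR 0.0144), were lower in 9 of 9 pairs too. Each of these calls was kept without EC sets 9, 11 and 13 (highest FDR 0.0476, Mmp2 under HG + FFA), and with the animal as the block only that of Bambi under HG + FFA was (FDR 0.0471). Under ALL 6 of the 28 reported targets were lower in EC and none higher. Eln, chosen here after its values were seen, was among them with a log2FC of -0.89 (FDR 0.0397, lower in 8 of 9 pairs), against 1.19 in WT VSMC, and the effect of ALL differed between WT VSMC and EC by 2.07 on the log2 scale (FDR 0.00751). Without EC sets 9, 11 and 13 these values of Eln were -1.10 (FDR 0.0466) and 2.29 (FDR 0.00406), and with the animal as the block -0.71 (FDR 0.65) and 1.89 (FDR 1). In that comparison 6 of the 71 further genes were called (8.45%, beside 0.511% of all genes), 5 with the larger effect in WT VSMC, and 0 with the animal as the block. The lists were chosen with earlier results of these data known, so these shares are a description.

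**Figure D5:**
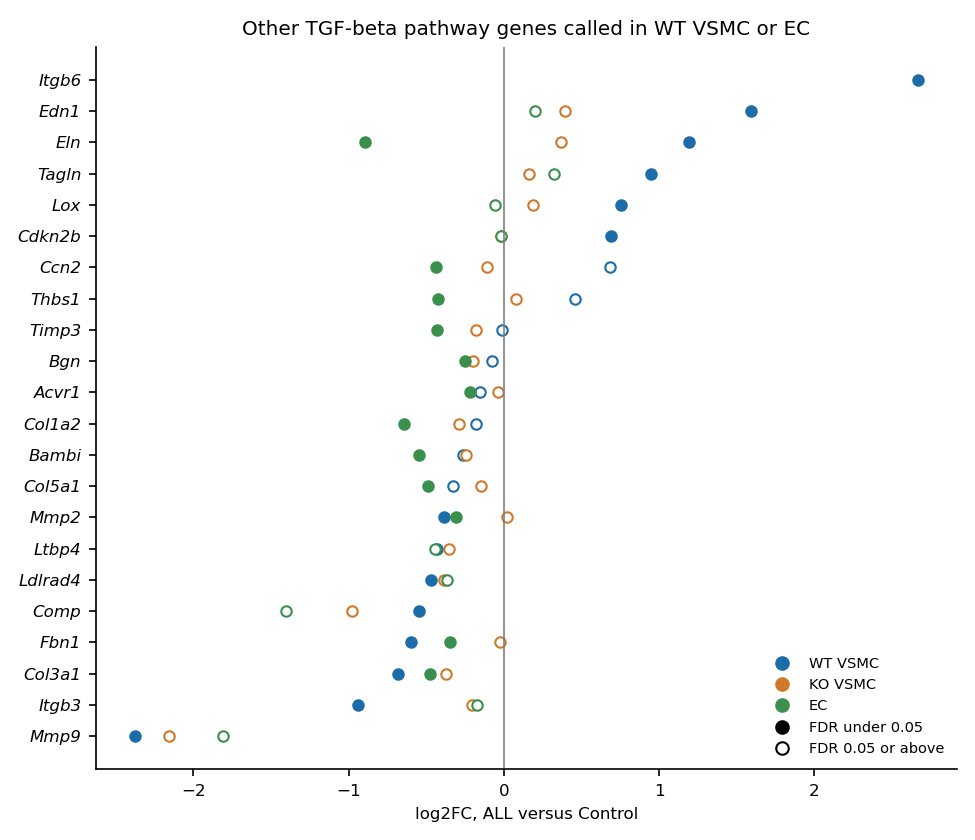
log2FC of ALL versus Control in each of the 3 cell types for 22 of the further pathway genes called under ALL in WT VSMC or EC, with filled points where the FDR was under 0.05 (Itgb6 was tested in WT VSMC only). Eln lies to the right in WT VSMC (1.19) and to the left in EC (-0.89), and no point of KO VSMC is filled. None of these genes passed the direct comparison of the effect of ALL between WT and KO VSMC.

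Genes with the most similar pattern were sought for the members called in a cell type, as Pearson's r of log2 FPM less the set mean over its libraries, without a test. In WT VSMC (16 libraries, 11204 protein-coding genes of at least 3 FPM) the closest to Tgfb2 were Prex2 (r = 0.975), Sqle (0.967) and Tnc (0.963). Tgfbr2 was closest to Add3 (0.98), Rnf144a (0.962) and Elac1 (0.96), and Tgfbi to Rab3il1 (0.944), Cped1 (0.942) and Abhd14b (0.94). In EC (38 libraries, 11335 genes) Tgfb3 was closest to Adamtsl4 (0.862), Rgs3 (0.857) and Sod3 (0.854), Ltbp2 to Col6a3 (0.888), Ace (0.879) and Slit3 (0.878), and Tgfbi to Pdgfra (0.833), Pxylp1 (0.81) and Dpy19l3 (0.799). These libraries share 4 conditions, so that genes answering to the same condition correlate.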

How the data were processed

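Poly(A) RNA of cultured VSMC and EC was sequenced in 69 libraries. The authors aligned the reads with HISAT2 2.1.0 to mm39 and counted them per gene over exons with featureCounts, keeping multi-mapping reads, and they deposited raw counts. The strand setting is not given in the sources used here. Of 56953 identifiers 56310 were found in the annotation, and the others held 0.0241% of the counts.

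Counts were tested with edgeR 4.0.16 (quasi-likelihood, TMM, filterByExpr) in R 4.3.3, per cell type with the set as a block, with Benjamini-Hochberg adjustment over all genes tested (FDR). A gene was called at an FDR under 0.05. DESeq2 1.42.0 was an alternative and entered the DEG rule. Control groups were compared between cell types without a block, and effects were compared in a joint fit. FPM were computed on one TMM scale, and log2 FPM for pairs and correlations used a pseudocount of 0.1. Intervals are at 95%. The scripts were tested on simulated data.

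The set numbers pair the libraries, since a set holds cells of a single animal per the labels, treated at the same time per the methods. Deviations from the group means correlated at a mean r of 0.797, 0.780 and 0.819 within sets of WT VSMC, KO VSMC and EC, against -0.269, -0.280 and -0.0913 between sets. EC sets 17 and 18 share an animal.

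All 10 members are named. Of the further pathway genes at most 4 a comparison are named, those with the largest |log2FC| among called genes that moved the same way in every complete set and had at least 3 FPM. Genes on both a pathway list and a marker list are named apart from this rule. A further gene that the rule names is not reported here. The members and lists were chosen with earlier results of these data known.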

Additional observations from a re-analysis of the deposited data

Results flagged for a closer look

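In 14 of 110 groups of libraries a member had 1 library far from the others by Dixon's criterion. Chance meets it in about 1 independent group in 20. The conditions of a set share the cells of a single animal, so these groups are not independent and the count cannot be set against that share. In EC Tgfbi was highest in set 18 under every condition, at 686 FPM under Control, 386 under HG + FFA, 610.2 under AII + NA and 485 under ALL, where the next libraries were at 126, 143, 91.7 and 89.97 FPM. Tgfbr3 was highest in EC set 9 under every condition, at 162, 143, 177 and 142 FPM in the same order. Set 9 is 1 of the 3 sets poor in endothelial markers. In WT VSMC Ltbp2 stood apart in set 2, at 548 FPM under HG + FFA and 1229.7 FPM under AII + NA, and Smad7 in set 1, at 88.6 FPM under HG + FFA and 101 FPM under ALL. Tgfb1 was at 92.6 FPM in EC set 12 under HG + FFA (next 63.2 FPM), and Tgfbr2 was at 200.1 FPM in KO VSMC set 7 under AII + NA (next 333 FPM).

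The effect of ALL on Tgfb2 differed between WT VSMC and EC by 0.99 on the log2 scale (FDR 0.00037 by edgeR), with higher values in 4 of 4 WT VSMC pairs and in 5 of 9 EC pairs. Cell type and labelled batch cannot be told apart in this comparison.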

How the results depend on the processing

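No value of a member that was called turned its direction. Of 200 member values per setting, 191 kept their side of the threshold with DESeq2 and 9 passed it in addition, 199 kept it with DESeq2 size factors in edgeR, and 174 without a filter on low counts, where 25 more passed. The number of called members was 3 under ALL in WT VSMC and became 5 with DESeq2, 6 without the filter and 0 with no replicate block. Under AII + NA in WT VSMC it went from 0 to 1 with DESeq2, to 3 without the filter and to 1 with only the 2 groups compared, and under HG + FFA to 3 without the filter. For ALL against HG + FFA in WT VSMC it went from 0 to 2 with DESeq2 and 4 without the filter, and for ALL against AII + NA to 3 without the filter. In KO VSMC the filter's removal gave 1 under HG + FFA, 1 under AII + NA and 3 under ALL, and under ALL DESeq2, the 2 groups alone and complete sets each gave 1. In EC the count under HG + FFA went from 2 to 0 with no replicate block, with the 2 groups alone and with the animal as the block, and to 1 with complete sets. Under ALL in EC it went from 3 to 0 with no replicate block and with the animal as the block, and to 1 with the 2 groups alone and with complete sets. Without the filter 1 member differed between WT and KO VSMC in the effect of ALL, and 2 between WT VSMC and EC, where no replicate block gave 0. Without the 3 EC sets poor in endothelial markers, an alternative chosen after seeing the data, the Control comparison of EC and WT VSMC went from 3 to 5. Leaving out 1 set at a time gave 1 to 3 members under ALL in WT VSMC, where the fit without set 4 called Tgfb2 alone, 0 to 1 under ALL in KO VSMC, 1 to 3 under HG + FFA and 1 to 4 under ALL in EC, where the fit without set 15 gave 1. The fits without the block ignore the pairing of libraries within sets; the cause of the other changes was not tested. With raw library sizes 119 of 120 mean levels moved by less than 1 SD.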
